A study of Sus scrofa with 6 samples.

Results

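The phagocyte NADPH oxidase is the enzyme with which monocytes, macrophages and neutrophils make superoxide from oxygen. Rows were taken where the symbol column of the deposited table equals CYBB, CYBA, NCF1, NCF4 or RAC2, and 3 of the 5 symbols had such a row (CYBB, NCF1 and NCF4), out of 11564 genes in the table. CYBA and RAC2 had no row under their own symbol. The row listed as RAC3 (ENSSSCG00000021944) carries an identifier that the reference table of gene names assigns to RAC2. It lies on chromosome 5, 306728 bp from NCF4, and in the Sscrofa11.1 assembly RAC2 and NCF4 share chromosome 5 while RAC3 is on chromosome 12. That row is therefore described here as RAC2, reached by identifier and outside the symbol rule.

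RNA-seq had been run on peripheral blood mononuclear cells (PBMCs, the lymphocytes and monocytes of blood) from 6 Yorkshire pigs at 6 months of age, 3 labelled WT and 3 labelled Leptin-overexpressing. According to the study, the leptin pigs derived from fetal fibroblasts that carried the pig leptin coding sequence under the leptin promoter. A neomycin-selected GFP vector was used, and the pigs were made by somatic cell nuclear transfer, with nontransgenic pigs as controls. The fibroblasts are described there as coming from a male fetus. The question is whether oxidase RNA differed between the labelled genotypes. Values are FPKM (fragments scaled by gene length and by library total), so levels of different genes can be set side by side, and the depth of each library is unknown.

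In the resting phagocyte the oxidase is kept in pieces. A membrane flavocytochrome holds the catalytic chain CYBB and its partner CYBA, while the organiser NCF1 and the phosphoinositide-binding NCF4 wait in the cytosol. On stimulation NCF1 is phosphorylated, the cytosolic subunits and the GTPase RAC2 move to the membrane, and electrons pass from NADPH through CYBB to oxygen. Inherited loss of CYBB, CYBA or NCF1 causes chronic granulomatous disease, and reduced oxidase function has also been linked to lupus in people. RNA levels do not measure assembly or superoxide output.

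The libraries were checked first. LEP, the gene of the transgene, was measured at 50.0, 0 and 0.118 FPKM for WT replicates 1, 2 and 3 and at 0, 18.3 and 39.3 FPKM for Leptin-overexpressing replicates 1, 2 and 3, so both replicate 1 libraries went against their labels. For leptin replicate 1 this rests on a listed 0, which can be a failed estimate or absent RNA, and which of these it is was not tested. A 0 stands in at least 1 library for 74 genes, LEP among them, that reach 20 FPKM elsewhere. Below, genotypes are those of the labels, replicates are given in numerical order, and the values of each subunit and of the genes at the extremes of the functional lists are also given without these 2 libraries. WT replicate 1 stood apart in its neutrophil marker RNA: the 7 marker rows found of 11 symbols summed to 3528 FPKM there and to between 412 and 1269 FPKM in the other 5 libraries. Most of that sum in WT replicate 1 was S100 RNA, with S100A12 at 1702, S100A9 at 1031 and S100A8 at 699 FPKM. Among the 7 rows, ELANE reached at most 1.05 FPKM, whereas S100A8 ranged from 66.5 to 699 FPKM. The granule genes MMP8 and LTF were highest in WT replicate 1, at 9.74 and 25.6 FPKM, against at most 1.20 and 9.92 FPKM elsewhere. MMP9 was highest in Leptin-overexpressing replicate 2, at 225 FPKM. Summed monocyte markers (8 rows) ranged from 418 to 915 FPKM, B cell markers (6 rows) from 381 to 678 FPKM and T cell markers (7 rows) from 563 to 1002 FPKM, so the lymphocytes and monocytes that the label PBMC names were present in each library. Within bulk RNA, fewer cells of a type and less RNA per cell cannot be told apart.

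The 3 members and RAC2 were detected in every library, and their levels kept the same order throughout. NCF1 was the highest in each of the 6 libraries, at 299.8 to 877 FPKM. RAC2 followed at 294 to 344 FPKM, then NCF4 at 140.1 to 200.1 FPKM and CYBB at 27.9 to 60.7 FPKM, and each of these steps held within all 6 libraries. The ranges of the neighbours NCF1 and RAC2 overlapped across libraries, whereas those of the other neighbours did not. Among the 11564 rows, NCF1 ranked between 97 and 233 from the top, whereas CYBB ranked between 1131 and 2356.

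**Figure D1:**
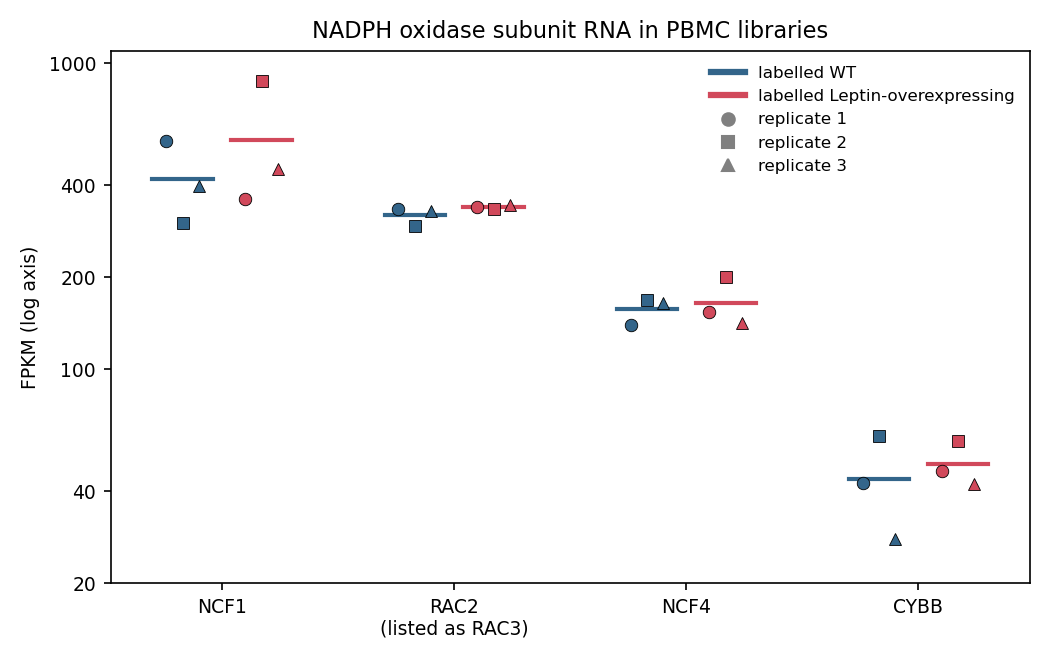
FPKM (log axis) of 4 oxidase genes in 6 PBMC libraries; each point is 1 library, coloured by label and shaped by replicate number, and horizontal bars are group means (n = 3). NCF1 spreads from 299.8 to 877 FPKM and CYBB from 27.9 to 60.7 FPKM, while the row read as RAC2 stays between 294 and 344 FPKM.

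CYBB (ENSSSCG00000012229, chromosome X from 37303173 to 37392877, as the table gives it with no genome build named) encodes the catalytic membrane subunit that carries the flavin and the hemes. The libraries labelled WT had 42.6, 60.7 and 27.9 FPKM, and the libraries labelled Leptin-overexpressing had 46.6, 58.3 and 42.3 FPKM. The highest and the lowest values both belonged to libraries labelled WT, so the 3 leptin values fell inside the WT range. Means were 43.8 ± 16.4 (SD, n = 3) and 49.1 ± 8.28 FPKM (SD, n = 3), a log2 fold change of 0.22 ± 0.27 (SE) with an adjusted p of 0.993 in limma, leptin minus WT being taken on the log2(FPKM + 1) scale here and below. The 95% interval ran from a 0.750-fold to a 1.80-fold level, and an exact two-sided permutation test gave p = 0.7, where 0.1 is the smallest value that 3 against 3 allows. Without WT replicate 3, the lowest library, the log2 fold change turned to -0.064. It was 0.26 without both replicate 1 libraries.

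Because CYBB is X-linked, Y-linked RNA was read beside it. DDX3Y had 35.0, 31.1 and 0.00917 FPKM under the WT label and 20.4, 1.83e-05 and 1.92e-06 FPKM under the leptin label, so its presence crossed the labels. Both leptin libraries with LEP RNA, replicates 2 and 3, were thus near 0 for this Y-linked gene, although the donor fetus is described as male. CYBB ranged from 42.6 to 60.7 FPKM in the 3 libraries with DDX3Y RNA and from 27.9 to 58.3 FPKM in the 3 without it. With this presence as a covariate, a step added after the data were seen, the CYBB log2 fold change was 0.34.

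NCF1 (ENSSSCG00000007722, chromosome 3 from 11538892 to 11553097) encodes the organiser subunit, whose phosphorylation releases it to bind the membrane partner. Values were 558, 299.8 and 398 FPKM under the WT label and 361, 877 and 451 FPKM under the leptin label. Replicate 2 of the leptin label was the highest and replicate 2 of the WT label the lowest, and the groups overlapped. The means of 419 ± 131 (SD, n = 3) and 563 ± 276 FPKM (SD, n = 3) gave a log2 fold change of 0.37 ± 0.35 (SE), for which limma returned an adjusted p of 0.993. This difference was within the spread between libraries, with a 95% interval from 0.735-fold to 2.26-fold and an exact two-sided permutation p = 0.6. It rested on 1 library: without Leptin-overexpressing replicate 2 the log2 fold change was -0.0076. Without both replicate 1 libraries, on the other hand, it was 0.86 (adjusted p = 0.999, limma) and the remaining 2 libraries of each label no longer overlapped, which held for 25.9% of all genes tested in that setting (10.4% higher in the leptin libraries, as NCF1 was). In people NCF1 has near-identical pseudogene copies that can share reads, whereas the RefSeq table for the pig lists 1 gene of this symbol.

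The 3 libraries with the most NCF1 RNA, WT replicate 1 and Leptin-overexpressing replicates 2 and 3, were also the 3 in which LEP exceeded 1 FPKM. Summed monocyte markers were highest in the same 3 libraries, at 907, 915 and 647 FPKM, against 418 to 554 FPKM in the others. Of the 8 marker rows, 3 were higher in each of these 3 libraries than in each of the others: LYZ (129 to 442 FPKM over all 6), the lysozyme of monocytes and granulocytes, CD14 (99.9 to 291 FPKM), the coreceptor for lipopolysaccharide, and the integrin chain ITGAM. The other 5 rows were not: CSF1R was highest in Leptin-overexpressing replicate 1, CD68 and VCAN in WT replicate 2, a lower row also named CD68 in Leptin-overexpressing replicate 1, and MPEG1 in Leptin-overexpressing replicate 2, as NCF1 was. Without LYZ and CD14 the summed markers no longer separated these libraries, at 198, 211 and 155 FPKM against 143 to 198 FPKM in the others. Summed neutrophil markers were at 3528, 1269 and 640.2 FPKM in these libraries, in the same order, and at 412 to 695 FPKM in the others. The part of cell composition in the NCF1 values was not tested.

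NCF4 (ENSSSCG00000000137, chromosome 5 from 8474344 to 8497583) encodes the subunit that binds phosphatidylinositol 3-phosphate on phagosomes. Its RNA reached 140.1, 169 and 165 FPKM under the WT label and 153, 200.1 and 141 FPKM under the leptin label. Apart from leptin replicate 2 at the top, the leptin values fell within the WT range. Means were 158 ± 15.7 (SD, n = 3) and 165 ± 31.0 FPKM (SD, n = 3), which differed by 0.050 ± 0.18 (SE) on the log2 scale (limma, adjusted p = 0.993; exact permutation p = 0.8). The 95% interval was 0.780-fold to 1.37-fold. Its sign changed to -0.096 without Leptin-overexpressing replicate 2 and to -0.015 with median-of-ratios scaling, it was 0.0096 without both replicate 1 libraries, and so no direction can be given.

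Thus 0 of the 3 members had an adjusted p under 0.05 in limma, where 0.00932% of the 10735 genes tested passed (1 gene, a copy of the small nucleolar RNA SNORD22), and 0 had an unadjusted p under 0.05, where 3.18% did. The labels separated 0 of the 3 without overlap, against 7.63% of all genes tested (5% higher and 2.63% lower in the leptin libraries). Without both replicate 1 libraries, the unadjusted p was under 0.05 for 0 of the 3 members as well, against 2.48% of all genes tested. All 3 log2 fold changes were above 0, but so were 63.1% of all genes tested, whose median was 0.059. They stayed above 0 without both replicate 1 libraries, where 43.2% of all genes tested were above 0 and the median was -0.032. When median-of-ratios scaling brought that median to 0.0020, CYBB was at 0.15, NCF1 at 0.30 and NCF4 at -0.015. The share of all genes above 0 also depends on scaling. FPKM summed to between 444888 and 449653 in the WT libraries and to between 467276 and 503140 in the leptin libraries. With every library scaled to the same sum, 37.5% of all genes tested were above 0 and their median was -0.056.

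RAC2, read beside the members, varied little. The row read as RAC2 (chromosome 5 from 8149171 to 8167615), the hematopoietic Rac GTPase, had 334, 294 and 330.1 FPKM under the WT label and 341, 335 and 344 FPKM under the leptin label. Each leptin value was above each WT value, which held for 5% of all genes tested. The nearest libraries were 1.07 FPKM apart. The log2 fold change was 0.091 ± 0.14 (SE), with an adjusted p of 0.993 in limma and an exact permutation p of 0.1, the smallest possible. With every library scaled to the same sum it was -0.038, so its direction depends on scaling. It was 0.12 without both replicate 1 libraries.

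**Figure D2:**
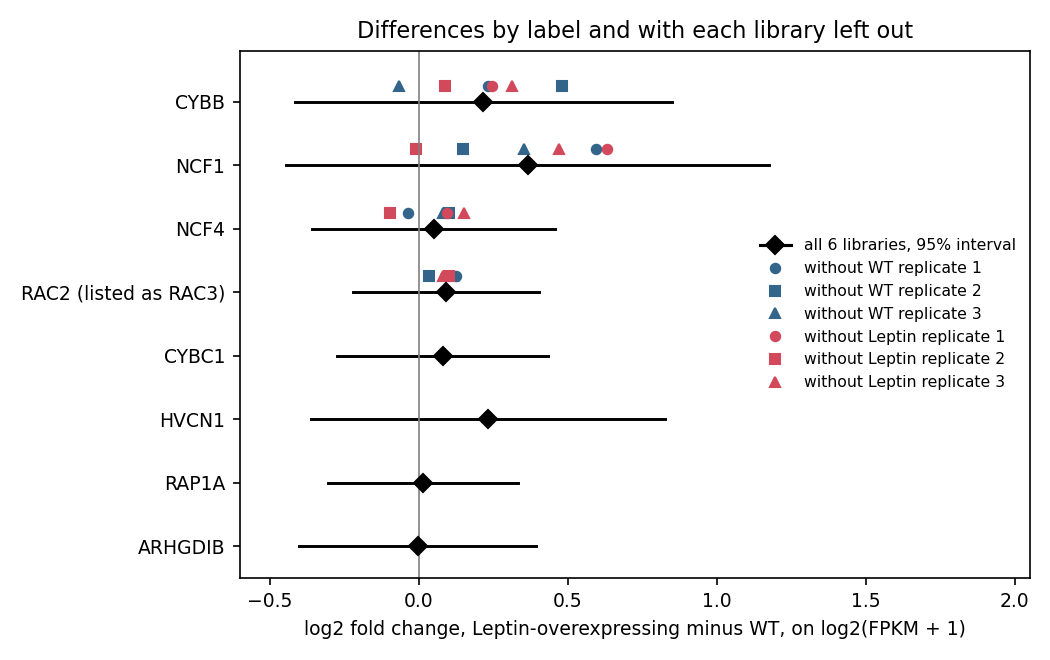
Log2 fold change on log2(FPKM + 1), libraries labelled Leptin-overexpressing minus WT, for 4 subunits and 4 partner genes; diamonds are fits on all 6 libraries with 95% intervals, and coloured points above the line leave out 1 library each (subunits only). Every interval spans 0, and the NCF1 points run from -0.0076 to 0.63.

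The subunits differed in how much they varied from pig to pig. Across all 6 libraries the SD of log2(FPKM + 1) was 0.55 for NCF1, larger than for 94.9% of the genes tested, and 0.39 for CYBB, larger than for 87.3%. NCF4 (0.19) and RAC2 (0.082) lay below the median of all genes, 0.22. For RAC2, 2.51% of the genes tested had a smaller SD. Within labels, NCF1 varied most in the leptin libraries (SD 0.67 against 0.45 in WT), and CYBB varied most in the WT libraries (SD 0.55 against 0.23).

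Ratios between subunits within a library do not depend on scaling between libraries, and they too varied. NCF1 exceeded CYBB by 13.1-fold, 4.94-fold and 14.3-fold under the WT label and by 7.74-fold, 15.0-fold and 10.7-fold under the leptin label. NCF1 exceeded NCF4 by 1.77-fold to 4.38-fold. The ratio of NCF4 to CYBB was 3.28, 2.79 and 5.91 in the WT libraries, in the same order of replicates, and 3.29, 3.43 and 3.34 in the leptin libraries, so the outlying value was that of WT replicate 3, where CYBB was lowest. The groups overlapped for each of these ratios.

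**Figure D3:**
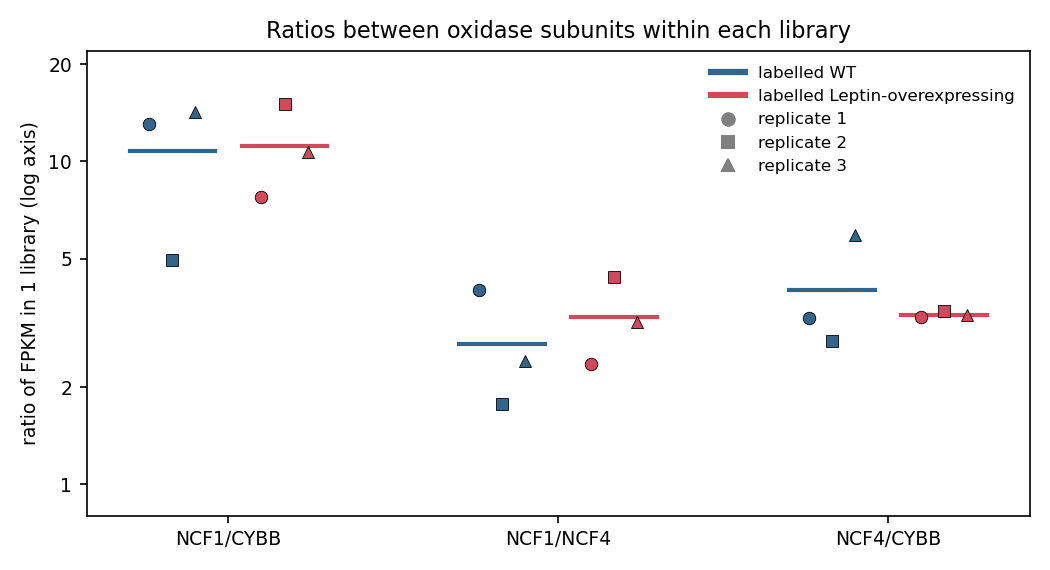
Ratio of FPKM between pairs of oxidase subunits within each library (log axis); points are libraries, coloured by label and shaped by replicate number, and bars are group means (n = 3). The NCF1 to CYBB ratio spans 4.94 to 15.0, whereas the NCF4 to CYBB ratio lies between 3.29 and 3.43 in all 3 leptin libraries.

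To see which genes followed each subunit, the root-mean-square difference between centred log2(FPKM + 1) profiles over the 6 libraries was taken for 4318 named genes with a mean of at least 10 FPKM. Nearest to CYBB were ANXA5 (difference 0.11), the phosphatidylserine-binding annexin, CYBRD1 (0.12), a ferric reductase of the cytochrome b family, and CASP1 (0.13), the protease of the inflammasome. They shared its low value in WT replicate 3 and its high values in both replicate 2 libraries. The genes nearest to NCF1 were ROGDI (0.15), TMEM92 (0.16) and INSIG1 (0.18), a sterol-regulated protein of the endoplasmic reticulum. Their peak lay in Leptin-overexpressing replicate 2, as for NCF1. NCF4 was followed most closely by ORMDL2 (0.032), a regulator of sphingolipid synthesis, CYTH4 (0.053), an ARF exchange factor, and BIN3 (0.054). CYTH4 also lies on chromosome 5, from 8072166 to 8104676, on the far side of the RAC2 row from NCF4. The subunits were not each other's nearest genes: NCF4 ranked 637 among the genes closest to CYBB (difference 0.33), and NCF1 ranked 3903 (0.56). These ranks describe 6 libraries and have no test.

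**Figure D4:**
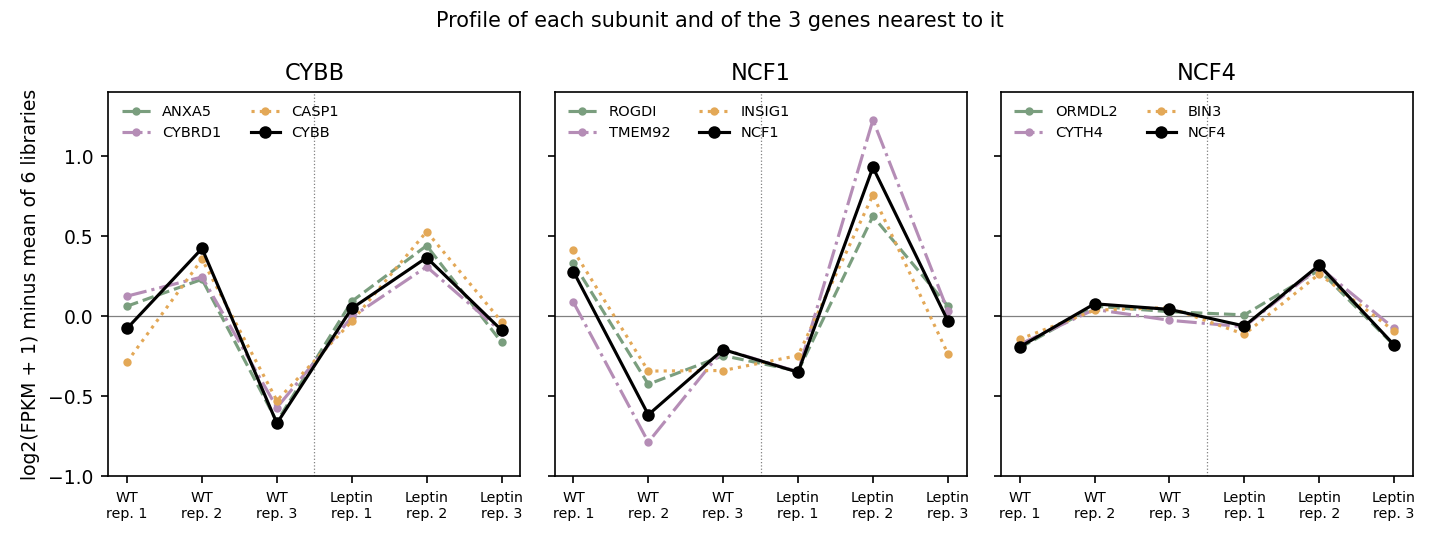
Centred log2(FPKM + 1) in each of 6 libraries for CYBB, NCF1 and NCF4 (black) and the 3 genes with the smallest root-mean-square difference from each (coloured); the dotted line parts the labels. CYBB dips in WT replicate 3, and NCF1 peaks in Leptin-overexpressing replicate 2. NCF4 varies less than CYBB and NCF1 and is also highest in Leptin-overexpressing replicate 2.

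Other proteins that the phagocyte oxidase needs were examined from a list of 7 symbols besides the members, of which 4 had a row. Of these, 3 were higher, against 63.1% of all genes tested, and 1 was lower. The unadjusted p of 0.05 was passed by 0, and the median log2 fold change was 0.048. With both replicate 1 libraries left out, 0 were higher, against 43.2% of all genes tested, and all 4 were lower. The median was -0.12 with 0 past the unadjusted p, so no direction can be given for this list. The first was CYBC1 (listed as C17orf62), the chaperone for CYBB in the endoplasmic reticulum, at 57.3 ± 5.31 (SD, n = 3) and 60.7 ± 6.94 FPKM (SD, n = 3) in the WT and leptin libraries. HVCN1, the proton channel that balances the charge moved by the oxidase, was at 55.9 ± 17.2 (SD, n = 3) and 64.2 ± 11.2 FPKM (SD, n = 3). RAP1A, a GTPase found with the flavocytochrome, was at 86.5 ± 6.90 (SD, n = 3) and 87.2 ± 2.57 FPKM (SD, n = 3). ARHGDIB, which holds Rac proteins in the cytosol, was the most abundant, at 637 ± 93.7 (SD, n = 3) and 634 ± 76.4 FPKM (SD, n = 3). In that setting the log2 fold change of HVCN1 turned from 0.23 to -0.18, that of CYBC1 from 0.081 to -0.072 and that of RAP1A from 0.015 to -0.067, while ARHGDIB moved from -0.0037 to -0.20. Of 10 other NOX and DUOX oxidase genes and their partners, 1 had a row, DUOX2, which stayed between 0.139 and 1.07 FPKM and was too low to be tested.

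Kinases, exchange factors and lipid kinases upstream of oxidase assembly gave 22 rows tested, 11 higher, against 63.1% of all genes tested, and 11 lower. Of these, 0 passed the unadjusted p, and the median log2 fold change was -0.0059. PAK1, a Rac-activated kinase, had the largest positive value (0.26 ± 0.18, SE), and MAPK14, the stress kinase p38 alpha, the largest negative (-0.45 ± 0.29, SE). Without both replicate 1 libraries these were 0.17 and -0.080, and the highest MAPK14 value, 103 FPKM against 42.9 to 58.7 FPKM elsewhere, was that of WT replicate 1. PLCG2 and PAK2, 2 of the 22 rows against 2.63% of all genes tested, were lower in each leptin library than in each WT library, with log2 fold changes of -0.27 and -0.33 (both adjusted p = 0.993, limma), and of -0.27 and -0.23 without both replicate 1 libraries. Enzymes that remove superoxide and peroxide gave 12 rows, of which 10 were higher, against 63.1% of all genes tested, 2 were lower and 0 passed, with a median of 0.15. Leaving out both replicate 1 libraries gave 9 higher, 3 lower and a median of 0.056. In that setting 43.2% of all genes tested were higher, with a median of -0.032. They ran from SOD2, the mitochondrial superoxide dismutase (-0.45 ± 0.39, SE), to GPX4, the lipid peroxide reductase (0.40 ± 0.23, SE), and these were -0.082 and 0.16 without both replicate 1 libraries. For the NADPH-producing enzymes, 7 rows were tested, 6 higher, against 63.1% of all genes tested, 1 lower and 0 past the unadjusted p. They lay between -0.014 for PGD and 0.19 for IDH2, with a median of 0.11. Leaving out both replicate 1 libraries gave 5 higher and 2 lower. Without both replicate 1 libraries PGD was at 0.16 and IDH2 at 0.082.

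Transcription factors known to act on the CYBB gene were tested in 7 rows. Of these, 6 were higher, against 63.1% of all genes tested, 1 was lower and 1 passed the unadjusted p, against 3.18% of all genes tested (1.98% higher), CEBPA (ENSSSCG00000002866, chromosome 6 from 38633642 to 38634707), a factor of myeloid differentiation. CEBPA was at 13.1 ± 1.18 (SD, n = 3) and 24.2 ± 3.02 FPKM (SD, n = 3) in the WT and leptin libraries without overlap (5% of all genes tested were higher without overlap), a log2 fold change of 0.83 ± 0.16 (SE) with an unadjusted p of 6.89e-04 and an adjusted p of 0.993 in limma. Without both replicate 1 libraries it was 0.80 ± 0.21 (SE). CEBPB, its relative in inflammatory responses, had the largest negative value, -0.68 ± 0.55 (SE), which turned to 0.042 without both replicate 1 libraries. SPI1, the myeloid master factor PU.1, was abundant at 705 ± 112 (SD, n = 3) and 807 ± 221 FPKM (SD, n = 3). Leptin-overexpressing replicate 2 had 1062 FPKM of it, against 680 and 678 FPKM in leptin replicates 1 and 3. Its log2 fold change was 0.17, and 0.40 without both replicate 1 libraries. For no gene of these lists was the adjusted p under 0.05.

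The table's own annotation was looked up for 6 KEGG pathways, and none of these was given for CYBB or for the row read as RAC2. NCF1 and NCF4 shared 4 of them, those of the phagosome, osteoclast differentiation, leukocyte transendothelial migration and leishmaniasis. NCF1 also carried the other 2, chemokine signaling and Fc gamma receptor phagocytosis. Of 73 phagosome genes tested, 53 (72.6%) were higher, against 63.1% of all genes tested, and 20 were lower. In either direction 0 passed the unadjusted p, and the median log2 fold change was 0.090. When both replicate 1 libraries were left out, 41 (56.2%) were higher, against 43.2% of all genes tested, and 32 were lower. In that setting 2 passed the unadjusted p, against 2.48% of all genes tested. These were the MHC class II genes SLA-DOA and SLA-DOB, lower in the leptin libraries there, whereas over all 6 libraries their log2 fold changes were 0.14 and 0.15, so no direction can be given. In the Fc gamma receptor pathway, 19 genes were higher and 13 lower, also with 0 past the unadjusted p and a median of 0.055. Over all 6 libraries NCF1 had the largest log2 fold change of its 32 genes tested. That value was -0.0076 without Leptin-overexpressing replicate 2. Without both replicate 1 libraries, 16 genes of the pathway were higher and 16 lower, with a median of 0.0012. The other 4 pathways held genes past the unadjusted p, all higher in the leptin libraries, where 1.98% of all genes tested were. Of 71 chemokine signaling genes tested, 5 passed, the chemokines CCL4, CCL8, XCL1 and CXCL16 and the NF-kappa-B inhibitor NFKBIA. Under the labels CCL4 was higher in the leptin libraries (log2 fold change 2.38), whereas the paper describes it as reduced in leptin pigs. Of 60 osteoclast differentiation genes and of 42 leishmaniasis genes, 2 passed, in both cases NFKBIA and the cytokine TNF, and of 33 transendothelial migration genes 1 passed, the protease MMP2. These genes are named after their values were seen, and their adjusted p ran from 0.897 to 0.993 in limma. All 7 stayed above 0 without both replicate 1 libraries, with log2 fold changes from 0.45 for CXCL16 to 2.75 for CCL4, but only CCL4, CCL8, NFKBIA and MMP2 still passed the unadjusted p, and TNF, XCL1 and CXCL16 did not (limma, unadjusted p = 0.0739, 0.0928 and 0.147). MMP2 was near the filter of 1 FPKM, at 0.823 and 0.894 FPKM in WT replicates 2 and 3. It was at 1.80 and 1.88 FPKM in Leptin-overexpressing replicates 2 and 3, so it passed the filter only through libraries where it was higher. The median of all genes tested was 0.059 over all 6 libraries and -0.032 without both replicate 1 libraries.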

How the data were processed

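The table analysed holds 1 FPKM value per gene and library, deposited by the authors. The paper's methods name Bowtie, the Ensembl version 75 transcriptome and RSEM, whereas the submitters' processing notes name STAR 2.5, Cuffnorm and other tools, and which of these made the values is not given in the sources used here. The authors' own fold changes, p-values and FDR in the table were not used. Animal codes in the column names gave each column's sample, and 0 columns were left over.

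Differences by label were fitted with limma 3.58.1 (R 4.3.3), with labelled genotype as the single term, on log2(FPKM + 1). The 10735 genes that reached 1 FPKM in 3 or more libraries were tested two-sided and p was adjusted over all of them by the Benjamini-Hochberg method. The paper names maSigPro, which was not run here. The fit was tested on simulated data first. FPKM values hold no read counts, so no counting interval is given, and p-values measure the spread between 3 pigs of each label. A 0 is given as listed.

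Members and lists were chosen with earlier results of these data known. The genes named are the members, all rows of the partner list, genes past the unadjusted p and the extremes of the other functional lists, the 3 nearest profiles per member, and LEP. Marker genes, DDX3Y, SPI1, PLCG2, PAK2 and the pathway genes past the unadjusted p were picked after their values were seen. List genes were matched by identifier through the reference table (7417 rows), which disagreed with the symbol in 309 of 5913 rows, and otherwise by symbol. Sequences were not used here, and 2 listed genes are not reported here. Alternatives were the pseudocount, filter, scaling, variance model, replicate block and libraries left out, the last on the same genes.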

Additional observations from a re-analysis of the deposited data

How the results depend on the processing

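Each subunit was refitted under 17 alternatives, one of them, Y-linked RNA as a covariate, added after the data were seen and computed as a value with no test. In the others the adjusted p of the 4 subunits was never under 0.797 (limma). With one library left out, log2 fold changes ranged from -0.064 to 0.48 for CYBB, from -0.0076 to 0.63 for NCF1, from -0.096 to 0.15 for NCF4 and from 0.033 to 0.12 for RAC2. Genes higher at the adjusted p ranged from 0 to 2, genes lower from 0 to 2, and genes at the unadjusted p from 259 to 847, the last without WT replicate 3. Median-of-ratios scaling turned NCF4 to -0.015. Scaling every library to the same sum turned NCF4 to -0.079 and RAC2 to -0.038, and it lowered CYBB to 0.092 and NCF1 to 0.24. Without both replicate 1 libraries 1 of the 3 members (NCF1) no longer overlapped between labels, in place of 0, where 25.9% of all genes tested did not overlap, and 1 gene in place of 0 was lower at the adjusted p. Genes higher at the adjusted p, 1 in the fit as reported, were 0 with a pseudocount of 10, 0 with at least 1 FPKM in every library and 0 without moderation of the variance. They were 2 with the replicate block, under which the log2 fold changes of the subunits stayed the same (CYBB 0.22, NCF1 0.37, NCF4 0.050) and no subunit passed. As far as the labels tell, same-numbered pigs share only a number, and their deviations correlated from -0.284 to 0.135. The causes of these changes were not tested. CYBA gave no value under any setting.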
